A study of Oryzias latipes with 10 samples.

Results

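The genes described here are those whose level in *yap* double mutants was below 0.5 times that in every wild-type and *yap* single mutant library. They were chosen from the read counts themselves. A gene was kept if its mean level over the 4 WT libraries was at least 1 CPM (reads of the gene per 1000000 reads in genes), if each of the 3 double mutant libraries was below 0.5 times the lowest of the other 7 libraries, and if each of the 3 single mutant libraries was at least 0.7 times the lowest WT library. Of 24365 genes, 14544 reached a mean WT level of 1 CPM and 24 met all of these values. The double mutant condition alone was met by 29 genes, or 0.199%. *lck*, a Src family kinase, and a few other named genes were set aside by the rule, which left 23 genes. *lck* was the one dropped gene that met the values, with 0, 0 and 0.229 CPM in the double mutants, 1.59, 1.51 and 1.99 CPM in the single mutants, and 1.75, 1.06, 1.89 and 4.38 CPM in WT. Because the levels in all 10 libraries chose the genes, their levels are given as a description, with no test.

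RNA was measured in whole medaka (*Oryzias latipes*) embryos at stage 16, during gastrulation. The double mutants (YAPd 1–3) are homozygous for deletion alleles of both *yap1* and *yap1b* (yap-/- yap1b-/-), the single mutants (YAPs 1–3) are homozygous for the *yap1* allele alone (yap-/-), and the wild type (WT 1–4) carries neither; the wild-type strain of the study is iCab. Each embryo was genotyped from its own DNA and RNA of equal genotype was then pooled, so a library is a pool of embryos, made from at least 10 embryos of several crosses, and p-values measure the spread between these pools. In whole embryos, fewer cells of a type and less RNA per cell cannot be told apart.

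Yap proteins are co-activators of transcription that enter the nucleus when the Hippo kinases are inactive and bind DNA through TEAD factors. Their target genes include many regulators of the actin cytoskeleton, cell adhesion and the extracellular matrix. Medaka has a pair of these co-activators, encoded by *yap1* on chromosome 13 and *yap1b* on chromosome 14, and embryos that lack both fail to assemble the posterior body axis.

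Libraries held 22053738 to 38383959 reads in genes, and 1 read was worth 0.0261 to 0.0453 CPM. *yap1* was at 75.2, 94.0 and 105 CPM in the double mutants, at 72.5, 96.5 and 85.6 CPM in the single mutants, and at 304, 287, 295 and 170 CPM in WT. *yap1b* was at 23.5, 26.5 and 29.9 CPM in the double mutants, at 50.6, 74.0 and 75.7 CPM in the single mutants, and at 78.5, 71.3, 79.4 and 83.9 CPM in WT. Both genes were thus low in the libraries labelled as their mutants. WT 4 stood apart from the other WT libraries: across genes, which are not independent replicates, Pearson's r of log2 CPM was 0.951 to 0.952 between WT 4 and WT 1–3, 0.989 to 0.990 among WT 1–3, and 0.958 to 0.970 between WT 4 and the double mutants. The edgeR model has a term for 2 technical sets, one of the single mutants and WT 1–3 and one of the double mutants and WT 4. These sets were read from expression values that the study published and are given by no label. With them, the double mutants are set against WT 4 alone.

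The name "low only in double mutants" held for part of the 23 genes. In 7 of them, *cyp51*, *niban2a*, *arhgef3*, *cpne2* and *ackr4a* among these, every single mutant library was also below all of WT 1–3, a pattern seen in 12.7% of the genes with at least 1 CPM. Among those of the latter that have a name, the share was 39.5%. These 7 passed because the threshold for the single mutants was set by the lowest WT library, and WT 4 lay below WT 1–3 in 18 of the 23 genes (in 41.1% of all genes with at least 1 CPM). Mean levels of the 5 named here were 0.574 to 0.756 times those in WT 1–3 in the single mutants. In 12 genes the single mutants kept at least 0.7 times the lowest of WT 1–3: *bco2a*, *dlg4a*, *mcf2b*, *fhl1* (ENSORLG00000001741, which has a description in place of a symbol), *jade2*, *gyg2* and 6 genes without a name. Their mean levels in the single mutants were 0.723 to 1.37 times those in WT 1–3 (median 0.957). The other 4 genes, *ankrd44* and 3 without a name, met neither description.

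**Figure D1:**
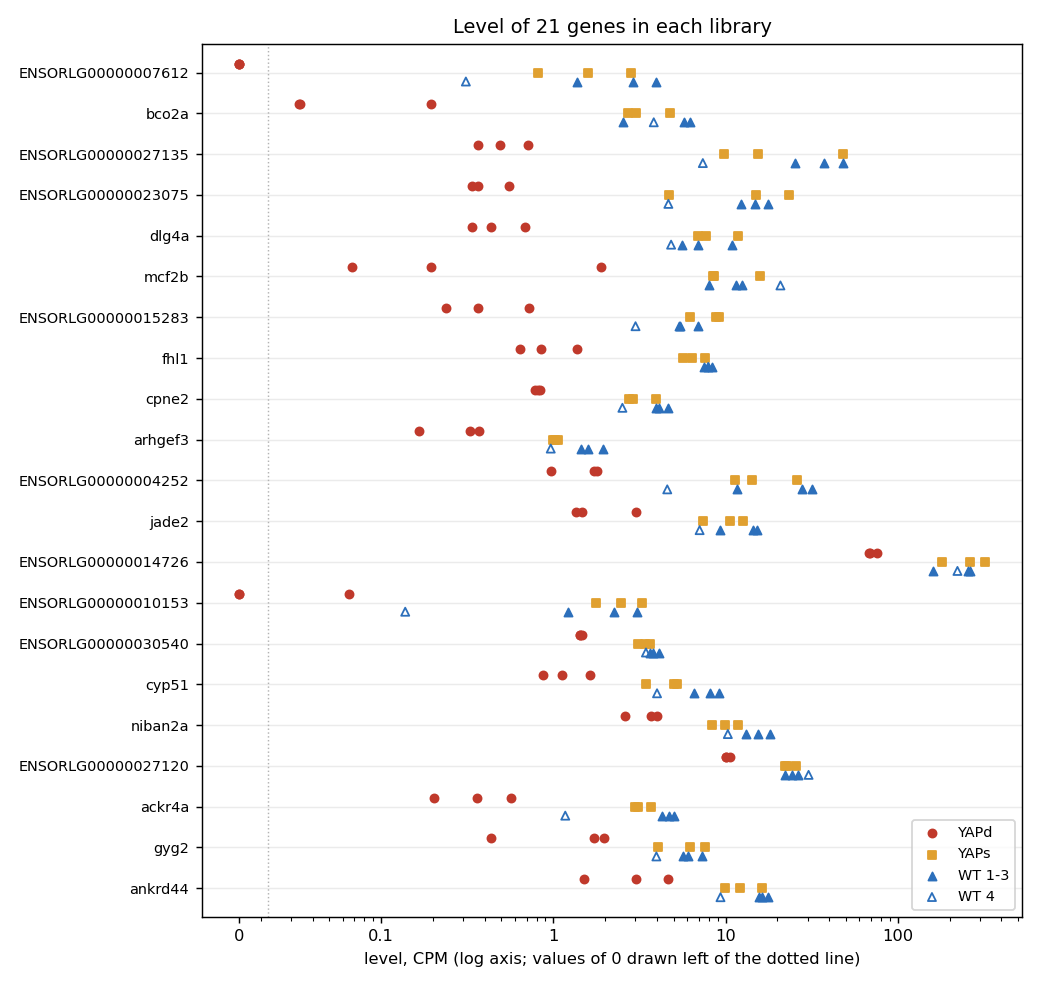
Level of 21 of the 23 genes in each of the 10 libraries (CPM, log axis, with values of 0 drawn left of the dotted line), with double mutants as red circles, single mutants as yellow squares, WT 1–3 as filled triangles and WT 4 as an open triangle. Rows are ordered by the highest double mutant level over the lowest other level, which runs from 0 to 0.496. In every row the red points lie left of all others, which the rule required, and in most rows the open triangle lies left of the filled ones.

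Of the 23 genes, 14 have a name or a description in the tables of the study and 11 of these could be placed on the RefSeq annotation of ASM223467v1. All 23 passed the minimum mean count of 10 and were tested. With edgeR's quasi-likelihood test and the technical sets, 15 of the 23 were called lower in the double mutants than in WT (adjusted p under 0.05), where the background was 2.02% of 16513 genes called lower and 2.31% called in either direction. The rule used this contrast, so nothing is read from that count. None of the 23 was called in the single mutants against WT (0.69% of all genes called, 0.6% lower) or in the double against the single mutants (0.0303% called, 0.0242% lower). At an unadjusted p under 0.05, edgeR gave 5 of them lower in the single mutants against WT (*cyp51*, *niban2a* and *arhgef3* among them) and 16 lower in the double against the single mutants, where 5.29% and 3.25% of all genes were lower in these comparisons. DESeq2 called 2 of them lower in the single mutants, and 1.92% of all genes. The rule used the same libraries, so nothing is read from these counts either.

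On chromosome 14, the chromosome of *yap1b*, lie 4 of the 11 placed genes. The position of a gene was not used by the rule. They are *dlg4a*, *mcf2b*, *fhl1* and *jade2*, all of them among the 12 genes above, and they make up 36.4% of the placed genes of the rule. Of all tested genes with a place, 67 of 1715 (3.91%) are on chromosome 14, and of RefSeq protein-coding genes 951 of 22071 (4.31%). Genes with a place are those listed in the tables of the study and are no random sample of the genome.

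*dlg4a*, a membrane-associated scaffold of the PSD-95 family known from synapses, lies 1.32 Mb beyond *yap1b* (chr14:14330340-14420042). It had 0.433, 0.339 and 0.686 CPM in the double mutants, 7.71, 6.93 and 11.8 CPM in the single mutants, and 6.96, 10.9, 5.59 and 4.83 CPM in WT. The single mutants overlapped WT 1–3, and the double mutant mean was 0.101 times the level in WT 4. *mcf2b*, a guanine nucleotide exchange factor of the Dbl family, lies 5.01 Mb before *yap1b* (chr14:7970234-7990513). Its level was 1.90, 0.0677 and 0.196 CPM in the double mutants, 8.48, 8.55 and 15.9 CPM in the single mutants, and 11.5, 12.4, 8.02 and 20.8 CPM in WT. The double mutant libraries differed among themselves by 28.0 times, the widest spread in that genotype among the genes of the rule with reads in all 3 libraries, and YAPd 1 was the highest of the 3. WT 4 was the highest WT library here.

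*fhl1* encodes a protein made of LIM domains that in mammals is abundant in muscle and binds the cytoskeleton. It lies 5.23 Mb before *yap1b* (chr14:7758029-7774005), with a gap of 196 kb to *mcf2b*, the smallest gap between placed genes of the rule. It had 1.37, 0.644 and 0.849 CPM in the double mutants, 7.62, 5.65 and 6.35 CPM in the single mutants, and 7.45, 8.33, 7.93 and 7.94 CPM in WT. WT 4 did not stand apart in this gene. *jade2*, a PHD finger protein that in mammals acts in a histone acetyltransferase complex, lies 8.99 Mb before *yap1b* (chr14:3797650-4012611). It had 1.47, 1.35 and 3.04 CPM in the double mutants, 10.6, 7.38 and 12.6 CPM in the single mutants, and 15.2, 9.23, 14.4 and 7.07 CPM in WT.

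A further gene of chromosome 14 met the double mutant threshold but neither the minimum WT level nor the single mutant threshold. *GRXCR2*, which in mammals is needed in the hair cells of the inner ear, lies 5.76 Mb before *yap1b* (chr14:7227151-7235288) and was named after its values were seen. It had no read in the 3 double mutant libraries, where 3 counts per library would be 0.0998 CPM. Its level was 0.363, 0.795 and 1.01 CPM in the single mutants and 0.703, 0.671, 0.828 and 0.759 CPM in WT, so that it was at least 7.42-fold lower in the double mutants than in WT. With it, 5 of 67 tested and placed genes on chromosome 14 were below 0.5 times all other libraries, against 12 of 1648 placed genes on the other chromosomes. Among placed genes with at least 1 CPM in WT the share was 0.915%. All 5 lie within 10 Mb of *yap1b*, where 50 tested genes other than *yap1b* are placed. The remaining 16 tested and placed genes of the chromosome lie farther away, and 0 of them were below this limit. The window thus held most placed genes of the chromosome, so no clustering near *yap1b* is read from this count.

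Wider counts separated chromosome 14 less. They include genes of the rule, which were chosen by their low double mutant levels. *dlg4a*, *mcf2b*, *fhl1* and *GRXCR2* are in each of these counts. Double mutants were below all 7 other libraries in 14 of the 67 genes of chromosome 14 (20.9%), *yap1b* and *jade2* among them, against 16.3% of placed genes elsewhere. On other numbered chromosomes this share ran from 9.46% (chromosome 16) to 26.3% (chromosome 18). Called lower were 12 of 67 (17.9%), *yap1b* again among them, against 14.8% elsewhere. The share called lower ran from 4.88% (chromosome 23) to 25.5% (chromosome 4) on other numbered chromosomes. Called lower by at least 2 on the log2 scale were 8 of 67 (11.9%), against 3.88% elsewhere. On single other chromosomes this last count was as high as 4 of 33 on chromosome 2, 4 of 38 (10.5%) on chromosome 18 and 6 of 61 (9.84%) on chromosome 19, and was 0 on chromosomes 12, 15 and 23. The median fitted log2 difference of the genes of chromosome 14 was −0.65, against −0.63 elsewhere. *fgf13b*, next to *mcf2b*, had 0.733, 0.610 and 1.01 CPM in the double mutants, 1.22, 2.1 and 2.91 CPM in the single mutants, and 3.60, 3.19, 2.99 and 3.55 CPM in WT, below the other libraries but not below 0.5 times them. *coro6*, a coronin that binds actin filaments and a gene that the rule set aside by name, is also on this chromosome and had 69.6 to 76.8 CPM in the double mutants, 128 to 144 CPM in the single mutants, and 152 to 221 CPM in WT. For comparison, 38 genes were below 0.5 times the lowest WT library in each of the 6 mutant libraries. All 38 have a place and 1 of them is on chromosome 14. No test of these shares was made.

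**Figure D2:**
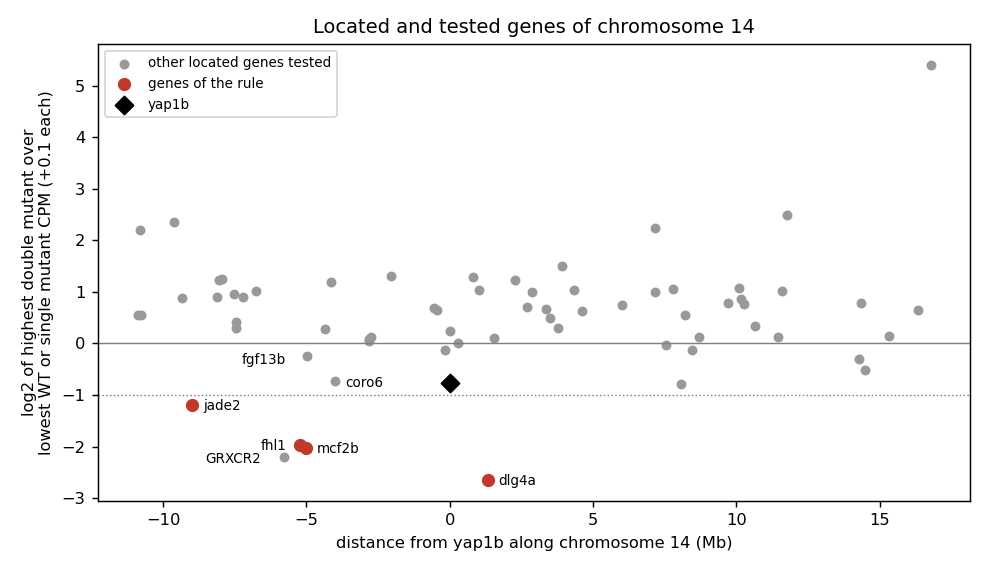
The 67 tested genes with a place on chromosome 14, by their distance from *yap1b* (Mb, x axis) and the log2 of the highest double mutant level over the lowest WT or single mutant level (y axis, 0.1 CPM added to each). Tested genes without a place are not shown. The dotted line at −1 marks 0.5 times the lowest other level. The 4 red points (genes of the rule) and *GRXCR2* lie below it, from 8.99 Mb before to 1.32 Mb beyond *yap1b* (black diamond), and the other genes shown lie above it.

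*cyp51* encodes an enzyme of cholesterol synthesis, the demethylase that acts on lanosterol. Cells make cholesterol from acetyl-CoA through mevalonate, squalene and lanosterol, and sterol-sensing SREBP factors set the transcription of the enzymes. *cyp51* had 0.866, 1.12 and 1.63 CPM in the double mutants, 5.03, 5.23 and 3.44 CPM in the single mutants, and 9.14, 8.14, 6.6 and 4.00 CPM in WT. The double mutants were lowest, the single mutants lay around WT 4, and WT 1–3 were highest.

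Other enzymes of the pathway were looked up after the levels of *cyp51* had been seen, so that their levels have no test. Of 19 enzymes listed, 7 gene IDs at 1 CPM or more carry such a name in the tables used here, *cyp51* included. The rule chose *cyp51* by its double and single mutant levels, so it is left out of the counts that follow. In the other 6 IDs, the double mutants were below all 4 WT libraries (19.2% of all genes and 50.5% of genes with a name were). In the same 6, the single mutants were below all of WT 1–3 (12.7% and 39.5%), as they were in *cyp51*. In the 6 IDs other than *cyp51* the median ratio of double mutants to the mean of all 4 WT libraries was 0.444. Within the technical sets, the median ratio was 0.583 for double mutants to WT 4 and 0.633 for single mutants to WT 1–3. *hmgcs1*, a synthase early in the pathway, had 80.8, 91.5 and 122.6 CPM in the double mutants, 120, 150 and 144 CPM in the single mutants, and 217, 209, 198 and 128 CPM in WT, so that its double mutants came close to WT 4. *LSS*, the synthase that makes lanosterol, had 1.00, 1.12 and 1.21 CPM in the double mutants, 2.04, 2.19 and 2.59 CPM in the single mutants, and 5.11, 4.50, 4.82 and 3.59 CPM in WT. A second gene ID named *lss* was lower and was given the same place on chromosome 21 as *LSS*. The 7 IDs may thus stand for fewer than 7 enzymes, and how reads were shared between *LSS* and *lss* is not known. In *HSD17B7* the mutants did not separate, with 2.40, 2.40 and 1.40 CPM in the double mutants, 2.09, 2.02 and 2.04 CPM in the single mutants, and 2.85 to 3.54 CPM in WT.

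Of regulators and uptake genes of this pathway, 5 had a name. *srebf2*, the SREBP factor of the cholesterol genes, had 14.3, 19.8 and 26.3 CPM in the double mutants, 33.0, 52.7 and 45.8 CPM in the single mutants, and 72.9, 64.3, 75.9 and 39.3 CPM in WT. *ldlrb*, a receptor that takes up lipoproteins, had 26.1, 49.7 and 50.9 CPM in the double mutants, 46.7, 61.5 and 63.4 CPM in the single mutants, and 119, 112, 115 and 93.2 CPM in WT. In all 5 the double mutants were below all WT libraries, and in 4 the single mutants were below all of WT 1–3, *srebf1* being the exception. The double mutants were below all 7 other libraries in 2 of the 5 and in 2 of the 6 enzyme IDs other than *cyp51* (7.19% of all genes and 15.4% of genes with a name). For *cyp51* itself the rule required this.

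**Figure D3:**
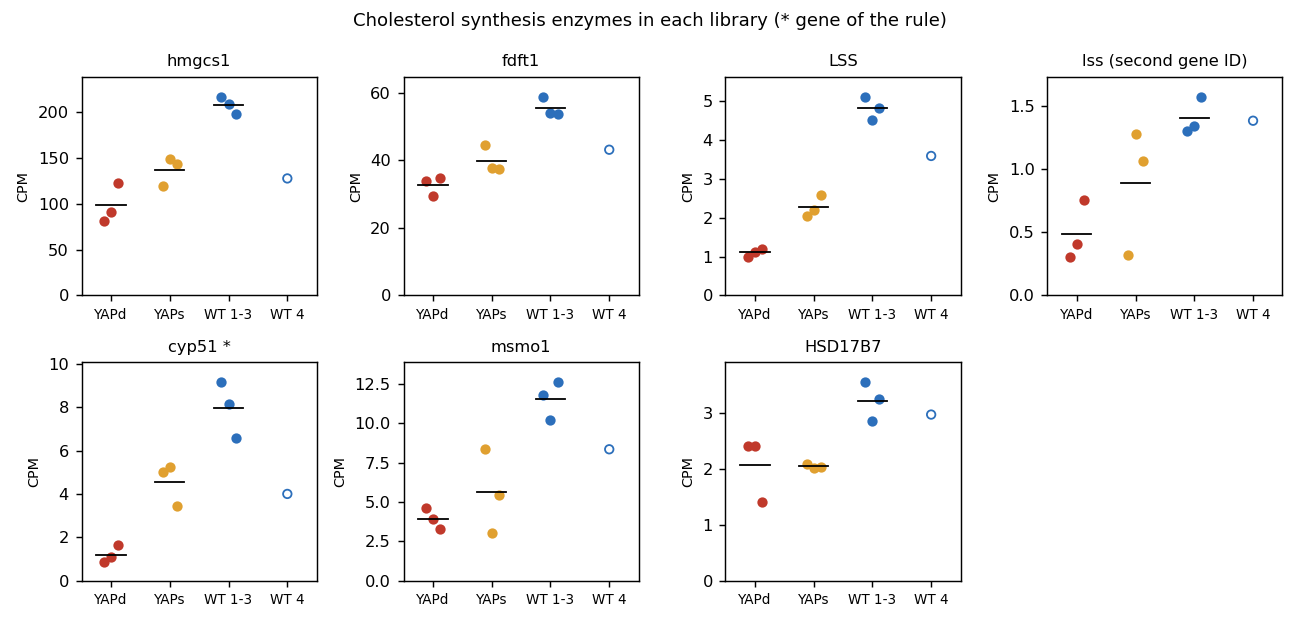
Level (CPM, axes from 0) of 7 gene IDs named as cholesterol synthesis enzymes in each library, with double mutants, single mutants, WT 1–3 and WT 4 from left to right and a bar at the mean of each group of 3. In *cyp51* (asterisk, a gene of the rule) double mutants lie below 0.5 times every other library, and in all 7 panels the single mutants lie below WT 1–3.

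Among the other named genes of the rule, *arhgef3*, a guanine nucleotide exchange factor (chr5:32614274-32643567), had 0.167, 0.373 and 0.327 CPM in the double mutants, 0.998, 1.02 and 1.06 CPM in the single mutants, and 1.95, 1.59, 1.45 and 0.966 CPM in WT. Its single mutants sat with WT 4 and below WT 1–3. *niban2a*, whose mammalian counterpart is found at the plasma membrane and at cell junctions (chr12:26662387-26700621), had 2.60, 3.69 and 3.98 CPM in the double mutants, 8.39, 9.97 and 11.8 CPM in the single mutants, and 15.3, 18.2, 13.2 and 10.3 CPM in WT. *cpne2*, a copine that binds phospholipids in a calcium-dependent way (chr6:24952226-25007448), had 0.833, 0.813 and 0.784 CPM in the double mutants, 3.94, 2.90 and 2.75 CPM in the single mutants, and 3.96, 4.08, 4.64 and 2.52 CPM in WT. The highest single mutant library of *cpne2* was just under the lowest of WT 1–3. *ankrd44*, an ankyrin repeat protein that in mammals is a subunit of protein phosphatase 6 (chr21:185043-224793), had 1.5, 3.01 and 4.64 CPM in the double mutants, 9.88, 16.2 and 12.2 CPM in the single mutants, and 16.2, 17.7, 15.6 and 9.35 CPM in WT.

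*bco2a*, an oxygenase that cleaves carotenoids, was the named gene with the smallest ratio of the highest double mutant to the lowest other library (0.077). It had 1, 1 and 6 reads in the double mutants, or 0.0333, 0.0339 and 0.196 CPM. Its level was 3.04, 4.74 and 2.7 CPM in the single mutants and 5.71, 2.54, 6.18 and 3.83 CPM in WT. Single mutants and WT overlapped, and WT 2 was the lowest of the WT libraries. Of 22 listed genes of retinoid and carotenoid metabolism, 5 were tested, and 2 were called in the double mutants, both lower (2.02% of all genes). Only genes with a name could be matched, and of placed genes outside chromosome 14, 14.8% were called lower. One of the 2 is *bco2a* itself, which the rule chose by this contrast. The median log2 difference of the 5 was 0.18, against 0.01 over all genes, and the other 3 were not called. The second was *cyp26b1*, a hydroxylase that clears retinoic acid, with 4.60, 3.15 and 4.05 CPM in the double mutants, 3.17, 7.35 and 5.90 CPM in the single mutants, and 12.4, 9.40, 10.7 and 28.5 CPM in WT (log2 difference −2.78, SE 0.32, adjusted p = 0.00406, edgeR). With the technical sets this difference is taken against WT 4 alone, the highest WT library of *cyp26b1*. Unlike *bco2a*, *cyp26b1* had overlapping single and double mutants.

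*gyg2*, a glycogenin that primes glycogen synthesis (chr2:299652-306211), had 0.433, 1.73 and 1.96 CPM in the double mutants, 4.04, 7.64 and 6.25 CPM in the single mutants, and 6.02, 5.68, 7.28 and 3.97 CPM in WT. *ackr4a*, an atypical receptor that in mammals removes chemokines without signalling through G proteins, had 0.566, 0.203 and 0.359 CPM in the double mutants, 3.67, 3.12 and 2.99 CPM in the single mutants, and 5.03, 4.28, 4.70 and 1.17 CPM in WT. WT 4 was at 0.251 times the mean of WT 1–3 in *ackr4a*, between the double mutants and all other libraries.

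An ID alone is known for 9 genes of the rule. ENSORLG00000014726 was the most abundant of all 23, with 68.4, 75.4 and 69.0 CPM in the double mutants, 181, 322 and 262 CPM in the single mutants, and 160, 262, 257 and 222 CPM in WT. ENSORLG00000027120 and ENSORLG00000030540 were the steadiest of these in the double mutants. The first had 10.7, 10.1 and 10.1 CPM in the double mutants, 22.3, 22.7 and 25.8 CPM in the single mutants, and 22.1, 24.4, 26.5 and 30.4 CPM in WT. The second had 1.47, 1.42 and 1.44 CPM in the double mutants, 3.40, 3.66 and 3.10 CPM in the single mutants, and 3.78, 4.08, 3.64 and 3.45 CPM in WT. In both, single mutants and WT overlapped. ENSORLG00000015283 was the gene with the highest ratio of single mutants to WT 1–3 (1.37), with 0.367, 0.237 and 0.718 CPM in the double mutants, 9.11, 8.86 and 6.25 CPM in the single mutants, and 5.44, 6.88, 5.35 and 3.00 CPM in WT.

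The other 5 genes without a name varied widely among libraries of one genotype. ENSORLG00000007612 had no read in the double mutants (3 counts per library would be 0.0998 CPM), 0.816, 2.81 and 1.59 CPM in the single mutants, and 2.89, 1.37, 3.96 and 0.311 CPM in WT. It was at least 21.4-fold lower in the double mutants than the WT mean, but at least 3.11-fold lower than WT 4. ENSORLG00000010153 had 0, 0 and 2 reads in the double mutants, 1.77, 2.47 and 3.28 CPM in the single mutants, and 1.22, 2.24, 3.08 and 0.138 CPM in WT. WT 4 held 4 reads of it, so that its separation from the double mutants rests on few counts. ENSORLG00000027135 had 0.367, 0.711 and 0.490 CPM in the double mutants, 9.84, 48.2 and 15.5 CPM in the single mutants, and 25.2, 48.4, 37.2 and 7.38 CPM in WT. ENSORLG00000023075 spanned 4.69 to 23.5 CPM in the single mutants alone, a spread of 5.01 times, and ENSORLG00000004252 had 27.8, 11.7, 31.7 and 4.59 CPM in WT.

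The spread within WT 1–3 was wider for the genes of the rule than for most genes. Their highest over lowest of WT 1–3 had a median of 1.39 (range 1.03 to 2.89), against 1.15 over all genes with at least 1 CPM, and it exceeded 2 in 4 of 23 (17.4%), against 3.03% of all genes. WT 4 was under 0.5 times the mean of WT 1–3 in 7 of 23 (30.4%), against 5.73% of all genes. The median WT level of the 23 was 7.91 CPM, against 21.9 CPM over all genes.

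**Figure D4:**
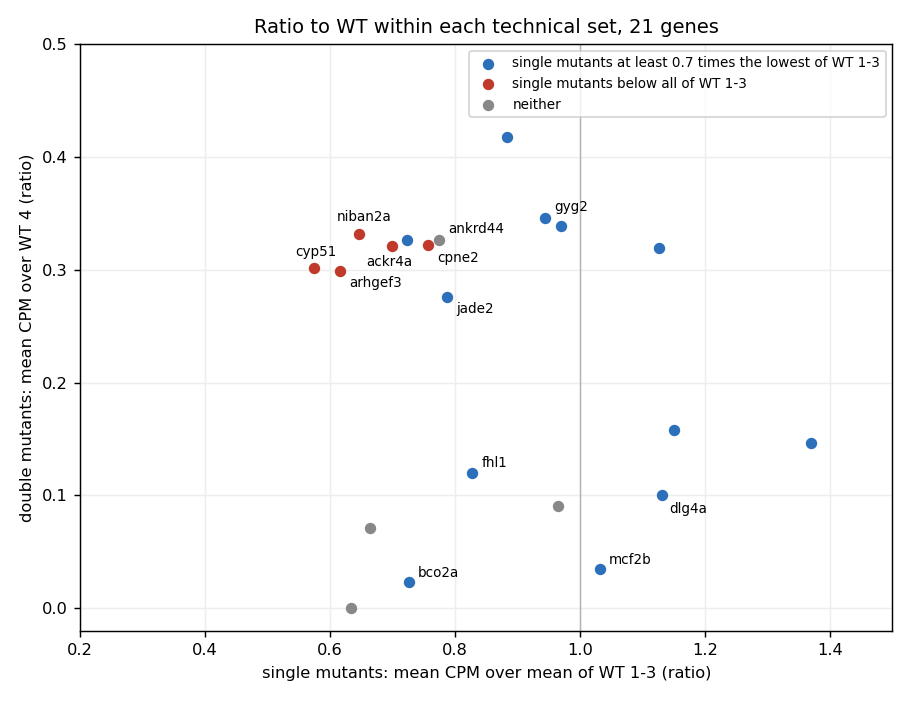
Ratio of the double mutant mean to WT 4 (y axis) against the ratio of the single mutant mean to the mean of WT 1–3 (x axis) for 21 of the 23 genes, each ratio taken within one technical set. The 5 red genes had every single mutant library below all of WT 1–3, in *cpne2* only just. They lie at 0.574 to 0.756 on the x axis, and the 12 blue genes lie at 0.723 to 1.37, so the ranges overlap. No gene of either colour exceeds 0.418 on the y axis, where the rule allowed only values below 0.5.

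Genes on either side of the threshold differed little. The highest double mutant over the lowest other library was 0.475 for *niban2a*, 0.483 for ENSORLG00000027120 and *ackr4a*, 0.494 for *gyg2* and 0.496 for *ankrd44*. Just outside, it was 0.505 for ENSORLG00000027342, 0.508 for *phyhipla*, 0.512 for ENSORLG00000010327 and ENSORLG00000029747, and 0.523 for *kifc3*, a kinesin motor with 8.0, 9.38 and 12 CPM in the double mutants, 23, 28.9 and 24.6 CPM in the single mutants, and 34.6, 36.3, 32.6 and 23.7 CPM in WT. The double mutant threshold was met by 5 genes that were too low in the single mutants. One is *ca15b*, a carbonic anhydrase, with 29.7, 34.4 and 34.6 CPM in the double mutants, 122, 122 and 151 CPM in the single mutants, and 200.4, 194, 192 and 192 CPM in WT. Its single mutants lay between the double mutants and all WT libraries. The opposite rule, low in the single mutants and not in the double mutants, took 2 genes.

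Markers of other cell types were summed in each library. The summed level of 7 of 23 listed enveloping layer genes was 2216 to 2893 CPM in the double mutants, 2769 to 3273 CPM in the single mutants and 3371 to 5165 CPM in WT, with the highest WT value in WT 4. *evpla* and *ppl*, which encode the plakins envoplakin and periplakin, made up much of this sum. In the double mutants *ppl* and *cldn1* were called lower (edgeR log2 difference −1.12, SE 0.16, and −1.50, SE 0.22). *agr1*, another gene of the list, went the other way, with 196, 162 and 192 CPM in the double mutants, 158, 114 and 116 CPM in the single mutants, and 71.9, 63.3, 62.7 and 66.2 CPM in WT (edgeR adjusted p = 0.0301 in the double and 0.0467 in the single mutants). Germ cell genes (2 of 10 listed) summed to 55.7 to 74.5 CPM in the double mutants, 158 to 205 CPM in the single mutants and 241 to 264 CPM in WT. This sum is that of *ddx4* and *ca15b*, the gene named above for its low double mutant level, and *ddx4* alone, an RNA helicase of germ cells, was not called (edgeR adjusted p = 0.421 in the double mutants). Yolk syncytial layer genes (4 of 12 listed) summed to 3110 to 3346 CPM in the double mutants, 2196 to 2307 CPM in the single mutants and 1769 to 2555 CPM in WT. The single mutants lay within the range of the 4 WT libraries, whose upper end was WT 4. Forerunner cell genes (3 of 6 listed) summed to 194 to 224 CPM in the double mutants, 204 to 220.2 CPM in the single mutants and 193 to 209 CPM in WT. Neural plate genes (2 of 11 listed) summed to 269 to 292 CPM in the double mutants, 257 to 265 CPM in the single mutants and 213 to 248 CPM in WT, again highest in WT 4. Most of this sum was *sox3*. The other gene, *otx2b*, had 24.5, 29.0 and 28.6 CPM in the double mutants and 40.5, 48.7 and 45.5 CPM in the single mutants. In WT *otx2b* had 43.6, 40.7, 45.9 and 25.1 CPM, so its double mutants lay around WT 4 and below all other libraries. Further sums are given for double mutants, single mutants and WT, in CPM. Epidermis and ionocytes (8 of 16 listed) had 507 to 544, 550 to 679 and 899 to 974. Blood and endothelium (6 of 16) had 11.5 to 14.7, 13.0 to 23.9 and 20.4 to 38.1. Heart and lateral mesoderm (6 of 13) had 86.6 to 128, 111 to 164 and 152 to 197. Early stress response (4 of 18) had 23.8 to 28.4, 23.9 to 29.8 and 55.1 to 78.9. Most of this sum was *klf6a* alone, with 15.6 to 20.1, 17.1 to 19.1 and 46.7 to 68.7. *foxi3b* of the first and *junba* and *egr1* of the last went the other way. Only listed genes with a name and a mean count of at least 10 were summed, so these sums do not cover the other listed markers. WT 4 had the highest WT sum in the epidermis, blood and stress lists and the lowest in the heart list. The part of the summed markers in the levels of the 23 genes was not tested.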

How the data were processed

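The authors trimmed reads, removed ribosomal reads, mapped the rest to ASM223467v1 with HISAT2 and counted them per Ensembl gene with HTSeq. The deposited values are these raw counts, without normalization. Reads in no gene (10.6% to 11.3%) and ambiguous reads (7.94% to 9.86%) were left out of all totals. CPM is a count over the sum of gene counts of its library, times 1000000. The test ran on the 16513 genes whose counts averaged 10 or more, by edgeR 4.0.16 (R 4.3.3) with TMM normalization and quasi-likelihood fits, terms for technical set and genotype, and Benjamini-Hochberg adjusted p over all genes tested. The other tool was DESeq2 1.42.0. The genes, lists and rule were chosen with earlier results of these data known, and the sterol genes after the levels of the 23 genes had been seen. Per-library levels are given for 12 of the 14 named genes of the rule, and some results are not reported here. Names came from the tables of the study (2414 genes) and places from RefSeq (1749 genes). The fit was also run on simulated counts. These held no difference between the technical sets, so they do not show how well the fit handles one. Sequences of promoters and proteins were not analysed here.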

Additional observations from a re-analysis of the deposited data

Results flagged for a closer look

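In *yap1*, WT 4 had 170 CPM and stood far from the other WT libraries at 287 to 304 CPM, with a gap that made up 0.873 of the range of the 4. Chance flags about 1 in 20 such groups of 4, and here 16.2% of all genes with at least 1 CPM were flagged.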

How the results depend on the processing

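The rule gave 20 genes with TMM-scaled CPM (18 shared with the 23) and 19 with DESeq2 size factors (17 shared). *gyg2* and *ankrd44* were lost with DESeq2. Lost with both were *ackr4a* and 3 genes without a name, ENSORLG00000014726, ENSORLG00000027120 and ENSORLG00000030540. A double mutant limit of 0.4 gave 13 genes and one of 0.6 gave 41, and no minimum WT level gave 41. Leaving out a library gave 23 to 63 genes, which were 63 without WT 4 (12 of the 23 shared), 62 without YAPd 3, 45 without YAPs 1 and 35 without YAPd 1. Requiring 0.7 times WT 1–3 as well, an alternative chosen after seeing the data, gave 12. A single mutant limit of 0.9 gave 17 genes. The 4 genes on chromosome 14 were kept in each of these except the limits of 0.4 and 0.9, which kept 3 each. In the double mutants against WT, 381 genes were called with the sets, 3982 without them and 731 with DESeq2. Leaving out a library gave 212 to 574 calls, which were 212 without YAPd 2, 574 without YAPs 1, 249 without WT 2 and 241 without either WT 1 or WT 3, and WT 4 could not be left out. Of the 23 genes, 15 were called lower with the sets, 23 without them, and 7 (without YAPd 2) to 15 with a library left out, 9 without WT 3. In the single mutants, 114 genes were called, 440 with DESeq2 and 26 to 169 with a library left out (48 without YAPs 2, 34 without YAPs 3, and 29, 31 and 26 when WT 1, 2 or 3 was left out). A replicate block in place of the sets, without WT 4, gave 7495 calls in the double mutants, with all 23 genes lower. Residuals of equally numbered libraries had an r of −0.0619 to 0.490, and those of unequally numbered libraries −0.414 to 0.355. The ranges overlap, although the highest r was that of YAPs 1 with YAPd 1. Whether the numbers pair the samples is not settled by these values. The cause of the differences between settings was not tested. Genes near 1 CPM rest on few reads.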
